A study of Homo sapiens with 6 samples.

Results

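Fibronectin and 8 secreted matricellular proteins were followed at the transcript level in Nthy-ori 3-1 cells, a line made from normal human thyroid follicular epithelium by immortalisation with SV40 large T antigen. The 9 genes are FN1, POSTN, TNC, THBS1, THBS2, SPARC, CCN1, CCN2 and TGFBI, out of 16574 genes in the deposited files. They were chosen by symbol with their differences between BDE209 and DMSO in these same libraries known, so those differences are described below and no p-value of a member is given. Cells of 3 libraries had 27 days of BDE209 at 2.5 µM; this flame retardant is decabromodiphenyl ether, with bromine at every ring position. The cells of the other 3 had the solvent dimethyl sulfoxide (DMSO) alone, at equal volume, over the same time. All 6 libraries are of wild-type cells of this 1 line, with replicates numbered 1 to 3 in each group, and the labels do not say whether replicates were separate cultures. P-values therefore measure only the spread between these libraries, which may be technical.

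Fibronectin is a large adhesive glycoprotein that cells pull into fibrils through integrins, and it forms an early scaffold of the extracellular matrix. Matricellular proteins are secreted into the matrix but act mainly as signals: they bind collagens, fibronectin, growth factors and integrins and shift cells between adhesion and movement. Many of their genes respond to TGF-beta, to the YAP and TEAD regulators that read cell tension, or to both. Fibronectin and several of these proteins are known to be raised in papillary thyroid carcinoma.

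Levels are given in FPKM, fragments scaled to transcript length and library total, so that different genes can be set side by side. The FPKM of a library summed to 567810 to 596725 in replicates 1 and 3 and to 819086 and 829739 in the replicate 2 libraries of DMSO and BDE209. Replicate 2 stood apart: over the 11223 genes tested, those that reached an FPKM of 1 in no fewer than 3 libraries, the median absolute difference of log2(FPKM + 1) between DMSO replicates 1 and 3 was 0.09, and between DMSO replicates 1 and 2 it was 0.33. Values are therefore given for each replicate number. Of the thyroid follicular markers, which summed to 6.59 to 8.94 FPKM under DMSO and 7.65 to 10.04 under BDE209, only HHEX and FOXE1 of 10 genes passed the filter. SLC5A5 and DUOX2 were at 0.03 FPKM or less in every library. The 10 fibroblast and mesenchymal markers, a list led by VIM, summed to 9567 to 13809 FPKM under DMSO and 8932 to 11818 under BDE209, and the 8 epithelial markers to 151 to 179.83 and 119 to 155. VIM made up most of the mesenchymal sum, and single markers of that list differed in direction, as genes named after their values were seen show. VIM read 9207, 7737 and 8139 FPKM under DMSO and 7520.28, 7183 and 6817 under BDE209. LUM read 8.0, 8.21 and 7.26 against 23.4, 11.1 and 21.96, and DCN 13.35, 17.5 and 12.9 against 31.15, 19.7 and 27.6. For VIM, LUM and DCN, 3 of the 10 markers, the groups did not overlap, against 5.22% of all genes tested. CDH2, PDGFRA, PDGFRB and THY1 differed by 0.23, -0.06, -0.29 and -0.14 log2 units over all 6 libraries. COL3A1 differed by -1.69, 0.21 and -1.71 log2 units in replicates 1, 2 and 3, while COL1A1 and COL1A2 stayed within 0.14 in each. Immune markers summed to 58.9 to 74.4 FPKM under DMSO and 48.8 to 68.3 under BDE209, nearly all of it CD68, while PTPRC stood at 0.02 FPKM or less. Smooth muscle, endothelial and C cell markers each summed to no more than 8.27 FPKM in any library. CDH1, the epithelial cadherin, was listed at 0 in 5 of 6 libraries. Whether marker levels had a part in the results below was not tested.

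Under BDE209, FN1 was lower and THBS2 was higher in all 3 replicates. POSTN and CCN2 were much lower in replicates 1 and 3, and differed by -0.06 and -0.18 log2 units in replicate 2. SPARC and THBS1 were higher in replicates 1 and 3 and lower in replicate 2. TNC, CCN1 and TGFBI stayed within 0.20 log2 units of DMSO in each replicate. In bulk libraries such as these, fewer cells that make a transcript and less of it per cell cannot be told apart. The members did not share a direction, and the median of their log2 differences was -0.09, against 0.01 over all genes tested. All 9 members passed the filter on low values, and each had FPKM above 12 in every library.

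**Figure D1:**
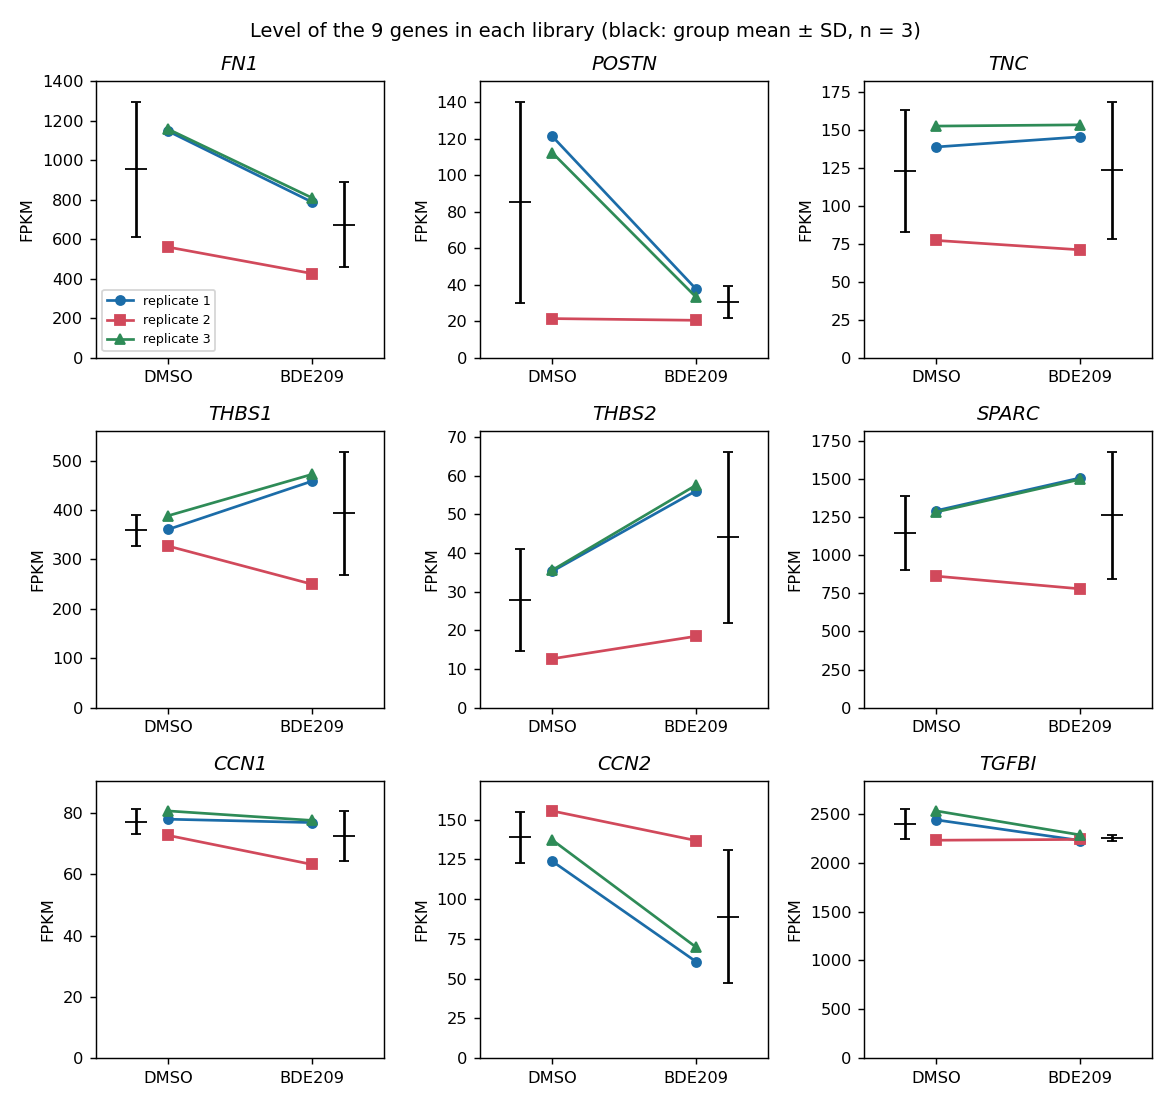
FPKM of each of the 9 genes under DMSO and BDE209, 1 panel per gene with its own linear axis from 0. Coloured lines join the libraries of 1 replicate number, and black bars show the group mean ± SD (n = 3). POSTN and CCN2 drop steeply in replicates 1 and 3 only, and replicate 2 lies lowest in both groups for FN1, POSTN, TNC, THBS1, THBS2, SPARC and CCN1.

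FN1 (ENSG00000115414), fibronectin itself, read 1148, 560.44 and 1159 FPKM for DMSO replicates 1, 2 and 3, against 788, 426 and 809.87 under BDE209. Each BDE209 library lay under its DMSO partner, at 0.687, 0.761 and 0.699 of it, but the groups overlapped because DMSO replicate 2 was as low as the BDE209 range. The means were 956 ± 342 and 675 ± 216 (SD, n = 3), and the differences of log2(FPKM + 1) were -0.54, -0.39 and -0.52. In replicate 2, 0.829% of the genes tested had a lower difference than FN1, and in replicates 1 and 3 these were 1.19% and 1.67%. FN1 was chosen with its differences known, so these shares describe and do not test. Not all members lay so far out: for TGFBI the shares were 21.4%, 46.2% and 21.1% in replicates 1, 2 and 3.

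SPARC (ENSG00000113140), a collagen-binding glycoprotein that loosens cell adhesion, read 1291, 862 and 1282 FPKM under DMSO and 1506, 779 and 1496 under BDE209. It was higher in replicates 1 and 3, by 0.22 log2 units in each, and lower in replicate 2, by a difference of -0.15. Its means were 1145 ± 245 and 1260.2 ± 417 (SD, n = 3), and the groups overlapped. TNC (ENSG00000041982), tenascin C, a modular protein that interferes with adhesion to fibronectin, read 139, 77.2 and 153 FPKM under DMSO and 145, 71.0 and 153 under BDE209. Its differences of 0.07, -0.12 and 0.01 were far smaller than the gap between replicate 2 and the other replicates in either group, and the means were 123 ± 40.1 and 123 ± 45.4.

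POSTN and TGFBI are the 2 fasciclin-domain members. POSTN (ENSG00000133110) encodes periostin, which supports collagen assembly and binds alpha-v integrins. It read 121, 21.4 and 112 FPKM for DMSO replicates 1, 2 and 3, against 37.45, 20.45 and 33.03 under BDE209. The 2 high values were DMSO replicates 1 and 3, and DMSO replicate 2 lay among the BDE209 libraries. The means were 85.0 ± 55.3 and 30.3 ± 8.82 (SD, n = 3), and the differences were -1.67, -0.06 and -1.74 log2 units. In replicates 1 and 3, 0.0356% and 0.0178% of the genes tested had a lower difference, and in replicate 2 27.9% did. POSTN too was chosen with its differences known, so these shares are no test. TGFBI (ENSG00000120708), named for its induction by TGF-beta, was the most abundant of the 9, at 2439.89, 2231 and 2531 FPKM under DMSO and 2228, 2239 and 2285 under BDE209, with differences of -0.13, 0.01 and -0.15. Its groups overlapped, with means of 2401 ± 154 and 2251 ± 30.1. Between the 2 fasciclin genes the gap in level was wide in every library: TGFBI stood 20.1, 104 and 22.5 times above POSTN in the DMSO libraries and 59.5, 109.5 and 69.2 times above it under BDE209.

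The promoter of POSTN is shown because it carries the largest difference of the set. It is the stretch of 250 bases before the RefSeq start (chr13:37598769-37599018, minus strand, GRCh38.p14). Windows of this kind were found for 8 of the 9 members, all but CCN1, and were searched on both strands for 6 motifs. The motif of the TEAD factors was taken as GGAATG. That of AP-1, the dimer of JUN and FOS proteins, was taken as TGANTCA. SMAD proteins, which carry the TGF-beta signal, were given the letters CAGACA. The box bound by the general factor TBP was spelled TATAAA. The GC box of SP1 and its relatives was spelled GGGCGG, and the CArG box of SRF was also searched. Matches may overlap one another. Capitals mark every match.
POSTN: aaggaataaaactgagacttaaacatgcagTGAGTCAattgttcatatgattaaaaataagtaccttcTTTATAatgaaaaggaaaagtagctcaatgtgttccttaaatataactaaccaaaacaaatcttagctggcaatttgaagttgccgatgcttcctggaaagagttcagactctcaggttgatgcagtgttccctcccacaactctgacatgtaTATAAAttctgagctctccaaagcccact
The window holds an AP-1 match that begins 220 bases before the start, a motif found in 6.57% of the 35116 promoters of the table. It also holds TATA matches that begin 182 and 29 bases before the start, and 10.7% of promoters hold that motif. It had no GC box match, and at 36.4% G and C it was the poorest of the 8 windows in these bases. The TGFBI window had 72.8% G and C, 3 GC box matches and no other match; 42.6% of promoters hold a GC box. A match is a run of letters and says nothing of whether a factor binds there in these cells.

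THBS1 and THBS2 are related thrombospondins, secreted glycoproteins that bind CD47 and CD36 and restrain vessel growth, and THBS1 also activates latent TGF-beta. THBS2 (ENSG00000186340) read 35.3, 12.7 and 35.6 FPKM under DMSO and 56.1, 18.5 and 57.6 under BDE209. Each BDE209 library lay above its DMSO partner, by factors of 1.59, 1.46 and 1.62, and the groups overlapped through the low BDE209 replicate 2. The means were 27.8 ± 13.1 and 44.1 ± 22.2 (SD, n = 3), and the differences were 0.66, 0.51 and 0.68 log2 units. THBS1 (ENSG00000137801) was the more abundant of the pair, at 361, 327 and 388 FPKM under DMSO and 458, 249.96 and 472 under BDE209. Its differences were 0.35, -0.39 and 0.28, so the direction in replicate 2 was the opposite of that in replicates 1 and 3. Its means of 359 ± 30.6 and 394 ± 125 differed by less than the larger SD. The ratio of THBS1 to THBS2 was lower under BDE209 in every replicate, at 10.2, 25.8 and 10.9 under DMSO and 8.17, 13.5 and 8.20 under BDE209.

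The 2 thrombospondin promoters are set side by side because the genes are relatives. Whether their promoters had a part in their differences was not tested. THBS1 is at chr15:39580829-39581078, plus strand, and THBS2 at chr6:169253847-169254096, minus strand (GRCh38.p14, 250 bases before the start, capitals for matches to the same 6 motifs).
THBS1: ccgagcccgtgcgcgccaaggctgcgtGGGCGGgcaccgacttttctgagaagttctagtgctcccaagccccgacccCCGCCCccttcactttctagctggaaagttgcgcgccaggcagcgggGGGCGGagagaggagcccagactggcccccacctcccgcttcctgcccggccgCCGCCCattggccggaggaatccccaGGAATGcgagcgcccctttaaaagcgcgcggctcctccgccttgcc
THBS2: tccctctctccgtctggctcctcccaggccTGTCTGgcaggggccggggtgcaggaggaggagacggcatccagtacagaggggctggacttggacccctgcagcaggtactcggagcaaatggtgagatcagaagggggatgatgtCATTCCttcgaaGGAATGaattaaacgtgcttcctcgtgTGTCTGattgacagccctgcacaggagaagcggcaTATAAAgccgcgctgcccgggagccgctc
Both hold the TEAD motif, which 11.9% of all promoters hold. In THBS1 it begins 46 bases before the start. In THBS2 it occurs 2 times, on opposite strands, beginning 103 and 91 bases before the start. THBS1 has 4 GC box matches and no TATA match. THBS2 has no GC box, a TATA match that begins 29 bases before the start, and 2 SMAD matches, a motif in 13.6% of promoters.

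CCN1 and CCN2 are cysteine-rich secreted proteins that bind integrins, CCN2 being also known as connective tissue growth factor. Both genes are textbook targets of YAP and TEAD. CCN2 (ENSG00000118523) read 124, 156 and 137 FPKM under DMSO and 60.55, 137 and 69.65 under BDE209. BDE209 replicates 1 and 3 lay far below every other library, and BDE209 replicate 2 lay inside the DMSO range. The means were 139 ± 15.9 and 89.0 ± 41.7 (SD, n = 3), the ratios to DMSO were 0.489, 0.880 and 0.507, and the differences -1.02, -0.18 and -0.97 log2 units. CCN1 (ENSG00000142871) read 78.0, 72.8 and 80.7 FPKM under DMSO and 76.9, 63.25 and 77.6 under BDE209, with differences of -0.02, -0.20 and -0.06 and means of 77.2 ± 4.06 and 72.6 ± 8.11. The order of the pair was thereby turned in replicates 1 and 3: the ratio of CCN2 to CCN1 was 1.59, 2.14 and 1.70 under DMSO and 0.787, 2.16 and 0.897 under BDE209.

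The CCN2 promoter (chr6:131951373-131951622, minus strand, GRCh38.p14) is shown for its repeated TEAD motif, with the same marking.
CCN2: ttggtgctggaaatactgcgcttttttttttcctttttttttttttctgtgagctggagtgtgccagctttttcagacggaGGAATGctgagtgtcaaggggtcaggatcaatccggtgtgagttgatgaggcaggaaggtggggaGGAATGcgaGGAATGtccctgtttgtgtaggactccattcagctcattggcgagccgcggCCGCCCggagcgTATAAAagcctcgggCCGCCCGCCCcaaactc
It holds the TEAD motif 3 times, all on the strand shown, beginning 169, 104 and 95 bases before the start, the most of the 8 windows. A TATA match begins 32 bases before the start, and of 3 GC box matches the 2 nearest to the start overlap each other. Across the 8 windows the TEAD motif was found in CCN2, THBS2, THBS1 and SPARC. CCN1 had no window, so its promoter was not searched. Whether the motif had a part in the differences of these genes was not tested. FN1 held 6 GC box matches and TNC 1 GC box and 1 SMAD match, and no window held the CArG box, which 1.16% of promoters hold.

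**Figure D2:**
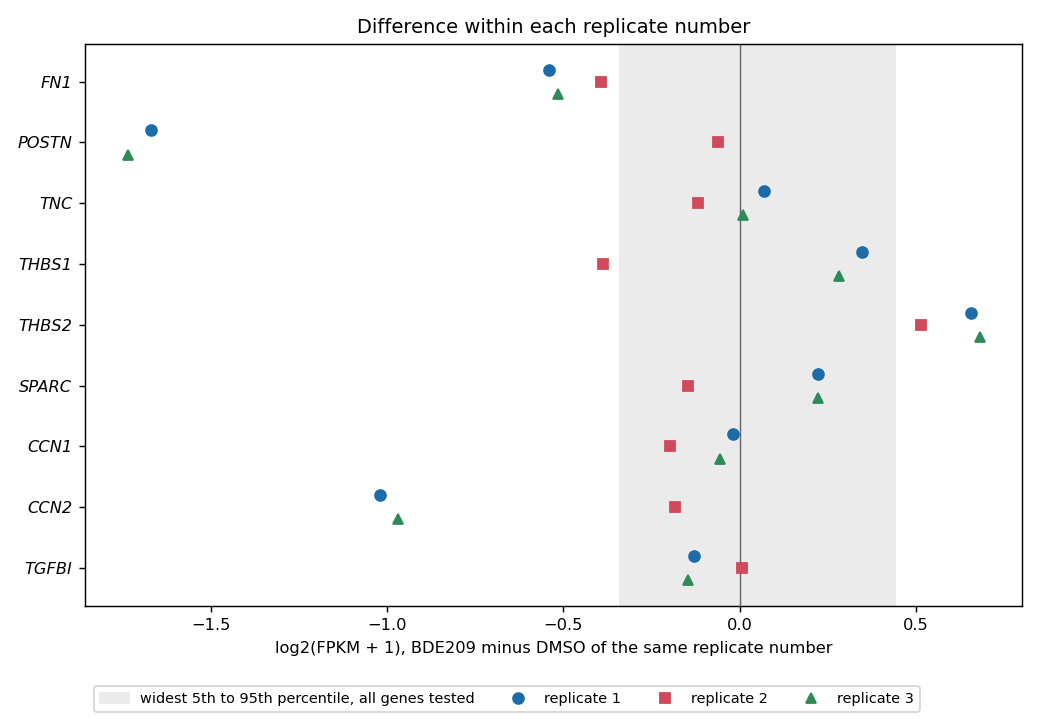
Difference of log2(FPKM + 1), BDE209 minus DMSO, within each replicate number for the 9 genes. The grey band runs from -0.34 to 0.44, the widest span of the 5th and 95th percentiles over the 11223 genes tested in any replicate. FN1 and THBS2 lie outside it in all 3 replicates, POSTN and CCN2 in replicates 1 and 3, and THBS1 in replicate 2.

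FN1, POSTN, CCN1 and CCN2 were lower in all 3 pairs, which held for 17.3% of all genes tested, and THBS2 was higher in all 3, which held for 21.9%. For 0 members did the groups lie apart without overlap, against 5.22% of genes. The members were listed with this contrast known, so nothing is read from these counts. Whether the difference in replicate 2 departs from that in replicates 1 and 3 was not tested.

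Under DMSO the order of the levels was TGFBI, SPARC, FN1, THBS1, CCN2, TNC, POSTN, CCN1 and THBS2, with means of 2401, 1145, 956, 359, 139, 123, 85.0, 77.2 and 27.8 FPKM. TGFBI lay above SPARC, FN1 above THBS1, THBS1 above CCN2 and CCN1 above THBS2 without overlap. The ranges of SPARC and FN1 overlapped, as did those of CCN2 and TNC, of TNC and POSTN, and of POSTN and CCN1. TGFBI ranked between 25 and 61 among all genes in the DMSO libraries, and THBS2 between 2400.0 and 5115. Under BDE209 the order of the means was TGFBI, SPARC, FN1, THBS1, TNC, CCN2, CCN1, THBS2 and POSTN, so POSTN went from the seventh to the last place. Ranges under BDE209 overlapped for SPARC and FN1, FN1 and THBS1, TNC and CCN2, CCN2 and CCN1, and THBS2 and POSTN. In replicate 2 POSTN lay above THBS2 in both groups, at 21.4 against 12.7 FPKM under DMSO and 20.45 against 18.5 under BDE209. TGFBI, SPARC and FN1 made up 84.2% to 86.0% of the summed FPKM of the 9 genes in every library. The 9 together took 0.961%, 0.527% and 1.01% of the library total under DMSO and 0.914%, 0.483% and 0.961% under BDE209.

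Ratios between members within a library set aside whatever scales a whole library. They do not set aside a shift that differs between genes. Replicate 2 minus the other replicates was -0.97 log2 units for FN1, -0.76 for SPARC and -0.98 for TNC. FN1 to SPARC was 0.890, 0.650 and 0.904 under DMSO and 0.524, 0.547 and 0.541 under BDE209, and the groups did not overlap. FN1 to TNC was 8.27, 7.26 and 7.60 under DMSO and 5.42, 6.002 and 5.28 under BDE209, again without overlap. These ratios were chosen after the values were seen and carry no test.

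**Figure D3:**
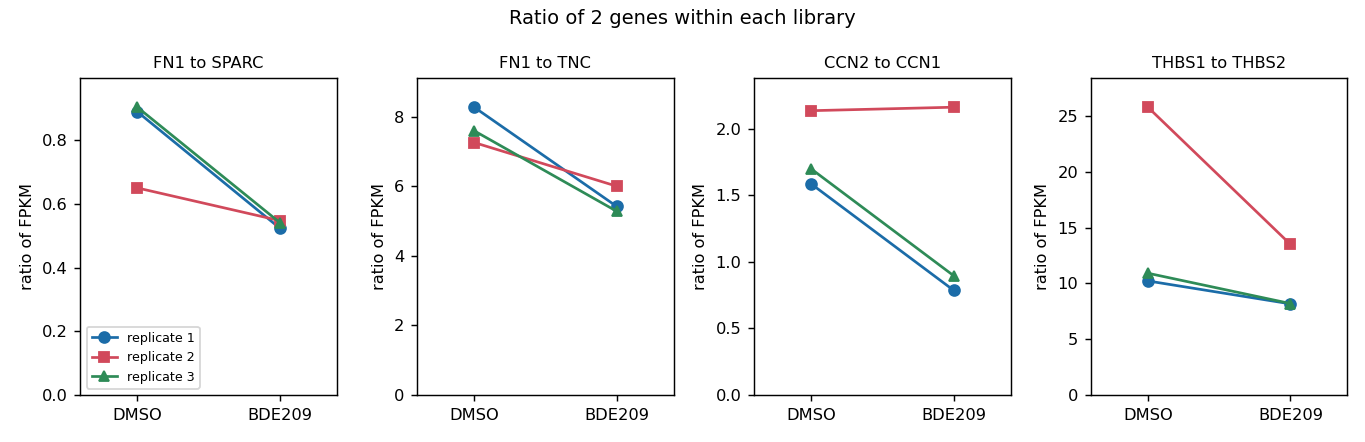
Ratio of the FPKM of 2 genes within each library, with lines joining the libraries of 1 replicate number and axes from 0. FN1 to SPARC and FN1 to TNC are lower under BDE209 in all 3 replicates, and CCN2 to CCN1 drops below 1 in BDE209 replicates 1 and 3 only.

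Replicate 2 was low for most of these genes under either treatment. The mean of its 2 libraries minus the mean of the other 4 was -1.57 log2 units for POSTN, -1.49 for THBS2, -0.98 for TNC, -0.97 for FN1, -0.76 for SPARC and -0.54 for THBS1. TGFBI and CCN1 were near level, at -0.08 and -0.20, and CCN2 was higher, at 0.66. Over all genes this shift followed transcript length, with medians of 0.33, -0.02, -0.20 and -0.39 from the shortest to the longest of 4 classes of about equal gene number. FN1, TNC, THBS1 and THBS2 are in the longest class, with transcripts of up to 9171, 7641, 7775 and 5811 bases. POSTN, at 3373 bases, lay low in its class, where 0.321% of genes had a lower shift, and THBS2 had 0.786% of its class below it. For POSTN the shift was -2.39 under DMSO and -0.75 under BDE209, and for CCN2 it was 0.25 and 1.06. The part of transcript length in the members' values was not tested.

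**Figure D4:**
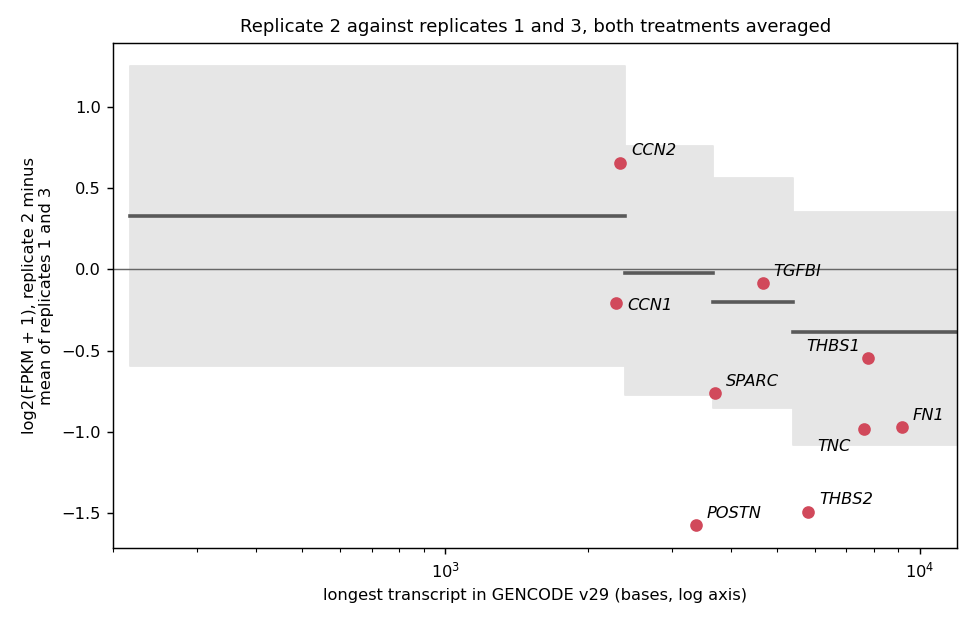
Replicate 2 minus the mean of replicates 1 and 3, in log2(FPKM + 1) averaged over both treatments, against the longest transcript of the gene on a log axis that ends before the longest transcripts of all. Grey bars and bands give the median and the 5th to 95th percentiles of all genes in each of 4 length classes. POSTN and THBS2 lie below their bands, and CCN2 lies above the median of its class.

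The genes nearest to each member were sought among all genes tested by the root mean square difference of their profiles over the 6 libraries, each profile taken as log2(FPKM + 1) minus its own mean. For FN1 these were AEBP1 and FADS2, at 0.09 each. For POSTN they were LTBP2 and BGN, at 0.33 and 0.34, the widest gap to a nearest gene among the 9. CCN2 was nearest to TRHDE and KCNMA1, at 0.11 and 0.16, and TRHDE read 3.89, 4.64 and 4.37 FPKM under DMSO and 1.07, 4.53 and 1.31 under BDE209. THBS2 was nearest to ERAP2 and APOL6, at 0.10 each. THBS1 was nearest to FBXO27 and KAT6B, SPARC to TXNIP and ANKFY1, TNC to GTF3C1 and HIPK2, CCN1 to TKT and PWWP3A, and TGFBI to CTBP2 and EIF5, all between 0.0086 and 0.053. Among the members themselves the nearest pair was CCN1 and TGFBI, at 0.09, and the farthest was CCN2 and THBS2, at 1.24. These distances rest on 6 libraries that share 3 replicate numbers and are descriptions only.

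Related genes came from 6 further lists: relatives of the members, their receptors, matrix assembly and crosslinking, TGF-beta signalling, YAP and TEAD, and SRF with its actin and early-response targets. Of 92 tested genes in these lists, limma (adjusted p under 0.05, Benjamini-Hochberg) called 0 over all 6 libraries, where 0.0% of 11223 genes were called and 176 had an unadjusted p under 0.05. With the replicate number as a block it called 0 too, again 0.0% of all genes. In replicates 1 and 3 alone it called 13 higher and 7 lower of 91 tested, where 6.68% of 11101 genes were called, 4.4% higher and 2.28% lower. Leaving out replicate 2 was done with its distance from the other libraries known. The lists were drawn up with earlier results of these data known, so the comparison with the background is a description. Over all genes tested, 21.9% were higher and 17.3% lower in all 3 pairs, and for 5.22% the groups did not overlap. The counts of each list below stand beside these shares, and nothing is read from them. Genes are named below by their p-values in the fit with the block. None was called there or without it, where the adjusted p was 1.00 for each, so they are given as values.

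Of the 22 relatives listed, 18 were found and 7 tested, with a median difference of -0.00075, 2 higher and 3 lower in all pairs. SPOCK1, a proteoglycan related to SPARC, read 35.95, 19.4 and 39.8 FPKM under DMSO and 24.7, 16.8 and 24.5 under BDE209, and in replicates 1 and 3 alone was called lower (limma adjusted p = 0.00773; 0.206 with the block). CCN4, another CCN protein, read 38.7, 24.5 and 38.8 under DMSO and 52.8, 24.6 and 50.3 under BDE209, and in replicates 1 and 3 alone was called higher (limma adjusted p = 0.0214; 0.254 with the block). FSTL1 and THBS3, relatives of SPARC and of the thrombospondins, differed by -0.11 and 0.13. TNXB, TNN, SPARCL1, SPOCK2, STAB1, STAB2, SPP1, VTN and others of this list lay under the filter.

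The 13 tested receptors had a median difference of 0.13, and 5 were higher and 1 lower in all pairs. SDC1, a heparan sulphate proteoglycan that binds fibronectin, read 42.3, 43.5 and 43.4 FPKM under DMSO and 31.45, 33.1 and 33.9 under BDE209, and the groups lay apart. Its difference was -0.38 over all 6 libraries (SE 0.111; limma adjusted p = 1.00, or 0.204 with the block) and -0.38 in replicates 1 and 3 (0.0317). ITGAV, the alpha-v chain that binds fibronectin, periostin and TGFBI, read 16.6, 13.85 and 18.1 under DMSO and 23.7, 15.6 and 25.0 under BDE209, a difference of 0.36, and was called higher in replicates 1 and 3 alone (limma adjusted p = 0.0204; 0.207 with the block). ITGA8 passed the filter only through BDE209, at 0.54 to 0.85 FPKM under DMSO and 1.05 to 1.24 under BDE209. Its place among the 5 higher receptors was thus set by the filter and is no result. CD47, a thrombospondin receptor, differed by 0.16. ITGA5 and ITGB1, which form the main fibronectin receptor and were named after their values were seen, read 113 to 176 and 628 to 744 FPKM under DMSO and 109.85 to 178 and 663 to 828 under BDE209.

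Of the 15 tested assembly genes, 8 were lower and 1 was higher in all pairs, against 17.3% and 21.9% of all genes tested. The median difference was -0.07. LTBP2, a microfibril protein, read 109, 29.3 and 122 FPKM under DMSO and 55.5, 24.5 and 62.4 under BDE209, a difference of -0.72 overall and -0.96 in replicates 1 and 3 (limma adjusted p = 0.00197; 0.216 with the block). It was also the gene nearest to POSTN. TGM2, a transglutaminase that crosslinks fibronectin, was the 1 that was higher in all pairs, at 6.05, 6.44 and 7.34 under DMSO and 11.04, 7.48 and 12.01 under BDE209, and its groups lay apart. It was called higher in replicates 1 and 3 alone (limma adjusted p = 0.0111; 0.216 with the block). FBLN1, fibulin 1, which binds fibronectin, read 91.8, 95.8 and 103 under DMSO and 77.6, 84.9 and 84.9 under BDE209, also apart. LOXL3, a lysyl oxidase, differed by -0.26.

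The 18 TGF-beta genes had a median difference of 0.09, with 5 higher and 3 lower in all pairs. PMEPA1, a target and a brake on the pathway, was higher in all pairs, at 59.1, 44.7 and 60.6 under DMSO and 75.4, 50.7 and 75.6 under BDE209. In replicates 1 and 3 alone it was called higher (limma adjusted p = 0.0364; 0.204 with the block). The ligand TGFB3 read 1.81 to 2.11 under DMSO and 1.17 to 1.61 under BDE209 and was called lower in replicates 1 and 3 alone (limma adjusted p = 0.0429; 0.242 with the block). SKIL, a repressor of SMAD proteins, differed by 0.20.

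Of 22 tested YAP and TEAD genes, 7 were lower and 2 higher in all pairs, and the median difference was 0.0045. GADD45B, a stress gene, read 41.6, 56.7 and 39.2 FPKM under DMSO and 30.3, 48.35 and 31.9 under BDE209. AXL, a receptor kinase, and FJX1 differed by -0.21 each and were lower in all pairs. TEAD2, a TEAD factor, was higher in all pairs, at 15.8, 14.3 and 15.6 under DMSO and 20.7, 15.5 and 22.8 under BDE209. In replicates 1 and 3 alone GADD45B was called lower and TEAD2 higher (limma adjusted p = 0.036 and 0.0219; 0.204 and 0.222 with the block). The 17 tested genes of the SRF list had a median of 0.03, with 3 higher and 4 lower in all pairs. JUNB and EGR1, early-response factors, differed by 0.21 and 0.24, ACTA2, smooth muscle actin, by 0.30 and MRTFA, a cofactor of SRF, by -0.15. EGR1 and ACTA2 were low, at 0.84 to 3.81 and 0.95 to 3.33 FPKM over all 6 libraries. For ACTA2 the differences were 0.65, 0.12 and 0.14 in replicates 1, 2 and 3.

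**Figure D5:**
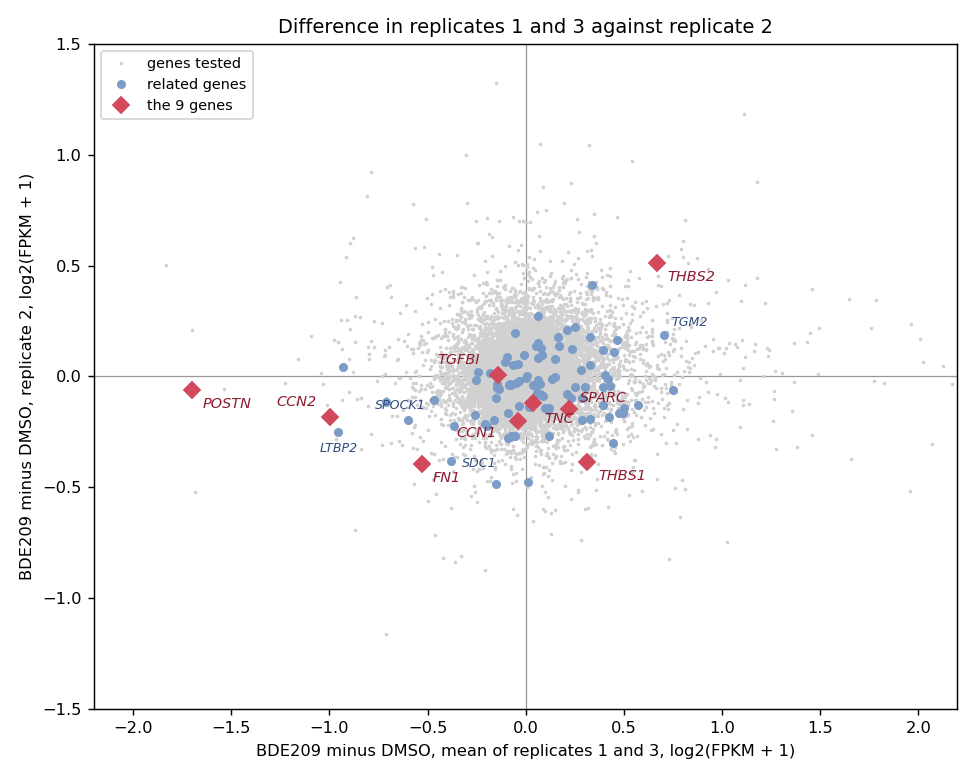
Difference of log2(FPKM + 1), BDE209 minus DMSO, averaged over replicates 1 and 3 (horizontal) and in replicate 2 (vertical), for all genes tested (grey), the related genes (blue) and the 9 genes (red); 8 genes lie outside the axes. POSTN and CCN2 lie far to the left, at replicate 2 differences of -0.06 and -0.18, while FN1 and THBS2 lie away from 0 on both axes.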

How the data were processed

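The authors deposited FPKM per gene and library, to 2 decimals, with Ensembl identifiers, per the file headers. RSEM, Bowtie2 and Bowtie 0.12.2 are named in the submitters' processing notes, as are 2 mouse builds, mm8 and mm10, although the identifiers are human. Annotation, strand use and the treatment of multiply matching reads: not given in the sources used here. Files had 16614 rows; the 40 rows of 20 repeated identifiers were left out. Symbols came from a reference table (16535 of 16574 genes matched), transcript lengths from GENCODE v29. Depth is not known: FPKM carry no counts, and the smallest value above 0 was 0.01.

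Limma 3.58.1 (R 4.3.3, trend and robust) was run with treatment alone on genes that reached an FPKM of 1 in no fewer than 3 libraries. Benjamini-Hochberg adjustment was over all genes, with a two-sided threshold of 0.05. In a check on simulated data, treatment alone was required to recover changes only where replicate 2 was not shifted. Where it was shifted, only the fit with the replicate block was required to. The check therefore does not vouch for treatment alone in libraries such as these, where replicate 2 stood apart. The scale used, log2(FPKM + 1), understates changes of low genes. The replicate numbers pair the libraries: deviations from group means correlated at 0.738, 0.875 and 0.824 for same-numbered libraries 1, 2 and 3. For differently numbered ones it was 0.644 and 0.646 between numbers 1 and 3, little lower, and -0.822 to -0.755 where replicate 2 was involved, so the pairing rests largely on replicate 2. Alternatives were a fit with the number as a block, another pseudocount, filter, scaling or limma option, and leaving out libraries. The members and lists were chosen with earlier results of these data known. Related genes named were the 4 per list with the smallest p in the block fit, since none was called (1 of these is not reported here), and the nearest genes the 2 per member, leaving out genes known only by clone or locus numbers. Promoters are from RefSeq (GRCh38.p14), matched by symbol.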

Additional observations from a re-analysis of the deposited data

How the results depend on the processing

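Limma called 0 genes under 7 alternatives: the replicate block, a pseudocount of 0.1, no filter, a minimum FPKM of 5, libraries rescaled to 1 common sum, median-ratio scaling, and no trend or robust option. With the replicate block 1847 genes had an unadjusted p under 0.05, against 176 without it and 186 without trend and robust. Leaving out libraries gave 0 to 741 called genes, 0 to 4 members past the threshold and 0 to 20 called related genes; 741, 4 and 20 came from leaving out both replicate 2 libraries, and 1 gene was called without BDE209 replicate 2. The members were chosen with these differences known, so their count supports nothing. The block changed no call. Under the 7 alternatives 0 members changed sign. The block, the filters and the limma option leave the members' differences as they are, so only the pseudocount and the scalings could change a sign. With libraries left out, FN1 ranged from -0.83 to -0.18, POSTN from -1.95 to -0.73, CCN2 from -1.08 to -0.50, THBS2 from 0.14 to 1.14 and TGFBI from -0.14 to -0.05, all with their sign. TNC ranged from -0.32 to 0.34, THBS1 from -0.08 to 0.38, SPARC from -0.09 to 0.41 and CCN1 from -0.14 to 0.0033, so their signs depend on the libraries used. FPKM give no counts, so the precision of single values is not known.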

Other observations

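The ratio of FN1 to THBS1 was 1.72, 1.71 and 1.71 in BDE209 replicates 1, 2 and 3 and 1.71 in DMSO replicate 2, against 3.18 and 2.98 in DMSO replicates 1 and 3. DMSO replicate 2 thus sat with the BDE209 libraries in this ratio, as it did in the level of POSTN. LTBP2, the gene nearest to POSTN, showed a similar order, with DMSO replicate 2 at 29.3 FPKM and the BDE209 libraries at 24.5 to 62.4. BGN, the proteoglycan biglycan and the next nearest, read 635, 159 and 682 FPKM under DMSO and 331, 190.27 and 354 under BDE209. For BGN, DMSO replicate 2 lay below every BDE209 library, and the difference in replicate 2 was towards higher under BDE209. For CCN2 and TRHDE the order was different: both replicate 2 libraries sat with DMSO replicates 1 and 3, and BDE209 replicates 1 and 3 stood alone. These patterns were noticed in the data and not tested.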
